A study of Mus musculus with 10 samples.

Results

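The genes described are those of respiratory complex I, taken as every gene whose current symbol begins with Nduf and that had a probe set annotated to that symbol alone. The array measured 39 such genes of 12384 genes in all. They comprised 6 of the 7 nuclear-encoded core subunits, 8 of 9 accessory subunits of the peripheral arm, 18 of 20 accessory subunits of the membrane arm, the acyl carrier Ndufab1 that sits in both arms, and 5 of 8 assembly factors with the prefix. Ndufa4 also carries the prefix, although it is now placed in complex IV. Each gene was represented by its brightest such probe set.

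Complex I oxidises NADH in the peripheral arm of the enzyme, passes the electrons along iron-sulfur clusters to ubiquinone, and pumps protons across the inner mitochondrial membrane through its membrane arm. Its catalytic core is made of subunits encoded in the nucleus and in mitochondrial DNA, around which accessory subunits, all nuclear-encoded, are placed by dedicated assembly factors. The heart draws most of its ATP from oxidative phosphorylation, and complex I is its main entry point for electrons from NADH.

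Ventricular RNA of 3 groups of mice was hybridised, 1 extract per Affymetrix array, with 3 arrays of alpha-TM175 hearts (TM175), 4 of alpha-TM180 hearts (TM180) and 3 of nontransgenic hearts (NTG). In each group 1 array carried an extract pooled from 20 hearts (TM175 array 3, TM180 array 4 and NTG array 3), and the other arrays carried extracts of individual hearts. As background, both lines carry a mutant alpha-tropomyosin, a thin filament protein of the sarcomere, and model familial hypertrophic cardiomyopathy. TM180 is the severe line and TM175 the mild one, and the series is titled as a study of early stages of hypertrophy. The labels list no treatment and give no age, sex, strain, transgene promoter or founder line, nor whether the pools held hearts that were also run individually. The p-values below set differences between groups against the spread between these arrays. That spread mixes individual hearts with pools of 20, so it is not a spread between animals.

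Values are intensities on the authors' linear scale. Differences are log2 differences, each transgenic line minus NTG unless said otherwise, and a gene is called when limma's moderated test gives an adjusted p under 0.05 after Benjamini-Hochberg correction over all 22626 probe sets. All 39 genes had a settled intensity, and the median intensity of an array lay between 66.7 and 71.0. The 3 pooled arrays separated from the individual ones on the first principal component, which held 47.2% of the variance, so differences are also given with extract type (pooled or individual) in the model. Cardiomyocyte markers were bright on all arrays, with sums over 8 genes of 48587 to 52585 in TM175, 47579 to 54176 in TM180 and 52239 to 58717 in NTG.

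In 11 members every array of both lines was lower than every NTG array. Shown are the promoters of 3: Ndufab1 and Ndufs4, called under extract type, and the core subunit Ndufs3, chosen for SP1 and ETS matches. Each is the stretch of 250 bases before the gene's start, from RefSeq's table on GRCm38.p6, read 5′ to 3′ on the minus strand, at chr7:122101849-122102098 for Ndufab1, chr13:114388095-114388344 for Ndufs4 and chr2:90904722-90904971 for Ndufs3. Capitals mark matches to the motifs described next.
Ndufab1: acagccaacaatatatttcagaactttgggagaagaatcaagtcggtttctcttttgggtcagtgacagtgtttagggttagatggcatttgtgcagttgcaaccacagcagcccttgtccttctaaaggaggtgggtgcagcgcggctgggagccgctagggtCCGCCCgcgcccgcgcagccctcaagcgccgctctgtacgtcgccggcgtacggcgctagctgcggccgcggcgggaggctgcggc
Ndufs4: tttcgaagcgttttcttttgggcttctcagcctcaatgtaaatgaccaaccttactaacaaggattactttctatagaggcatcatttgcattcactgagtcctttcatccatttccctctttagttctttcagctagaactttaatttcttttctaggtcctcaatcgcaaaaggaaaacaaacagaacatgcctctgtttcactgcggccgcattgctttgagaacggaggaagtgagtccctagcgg
Ndufs3: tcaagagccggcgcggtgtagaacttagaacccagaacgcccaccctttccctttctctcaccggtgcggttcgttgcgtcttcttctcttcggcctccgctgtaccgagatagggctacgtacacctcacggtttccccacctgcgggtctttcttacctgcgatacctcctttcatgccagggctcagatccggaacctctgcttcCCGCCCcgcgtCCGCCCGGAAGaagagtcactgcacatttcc

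Of the 39 genes, 36 had a promoter in the table, in 38 windows of 300 bases that run from 250 bases before to 50 bases after the start. Motifs linked in the literature to nuclear genes of mitochondria were searched on both strands. The NRF1 core GCGCATGC was in 4 of the 38 windows (10.5%, against 2.71% of all 32851 windows), in Ndufa6, Ndufa8, Ndufaf4 and Ndufaf5. The ETS core CCGGAAG was in 5 (13.2%, against 8.86%), in Ndufaf1, Ndufb6, Ndufb7, Ndufs3 and Ndufs8. The YY1 core AAGATGG was in 6 (15.8%, against 6.34%), in Ndufa3, Ndufa9, Ndufb8, Ndufc1, Ndufs4 and Ndufs7. The SP1 box GGGCGG was in 19 (50%, against 35.7%), and the ERR element TCAAGGTCA in 0 (0%, against 0.423%). The capitals in Ndufab1 are 1 SP1 box on the opposite strand, starting 86 bases before the gene's start. In Ndufs3 they are 2 SP1 boxes on the opposite strand, at 42 and 31 bases before the start, the second of which overlaps an ETS core at 27 bases. Ndufs4 had no match in the stretch shown, since its YY1 core lay after the start. These are counts of letters, with no test and no measure of binding.

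Across the family, intensities in both transgenic lines lay slightly below those of NTG, and no gene was called in the model without covariate. Against NTG, 38 of the 39 differences were below 0 in TM175 and 39 of 39 in TM180, where 41.7% and 49.2% of all 12384 genes were below 0. The median difference was -0.22 in TM175, with a range of -0.56 (Ndufab1) to 0.03 (Ndufb2), beside a median of 0.04 over all genes. In TM180 the median was -0.19, with a range of -0.43 (Ndufs4) to -0.01 (Ndufa2), beside 0.00 over all genes. Both comparisons use the same 3 NTG arrays.

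The number of called members was 0 of 39 in TM175 against NTG, where 0% of all genes were called lower, and 0 of 39 in TM180 against NTG, where 0.129% were. The smallest adjusted p by limma was 0.132 for Ndufab1 in TM175 and 0.105 for Ndufs4 in TM180. At an unadjusted p under 0.05, 15 members were lower in TM175 (8.01% of all genes were) and 10 were lower in TM180 (4.07% of all genes). At that p 0 members were higher in either line, where 807 of all 12384 genes were in TM175 and 776 in TM180. Leaving out 1 array moved the counts of lower members to between 10 and 24 in TM175 and to between 5 and 12 in TM180. The highest TM175 count came without its pooled array 3, where 8.81% of all genes were lower at that p. Where the TM175 count was 10, 4.45% to 5.85% of all genes were. The lowest TM180 count came without NTG array 1, where 2.75% were, and where it was 12, 4.13% to 4.47% were. Repeating the quantile normalization lowered the TM175 count to 6, where 5.94% of all genes were lower at that p. It brought the TM175 median to -0.11, with 31 of 39 differences below 0.

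With extract type in the model, 2 members were called lower in TM175, Ndufab1 and Ndufs4, where 0.711% of all genes were called lower, and 1 in TM180, Ndufs4, where 0.589% were. These calls depended on single arrays. In TM175 none was left without any 1 of its own 3 arrays, TM180 array 4, NTG array 1 or NTG array 3, and 1 was left (Ndufab1) without TM180 array 1. Without NTG array 2 there were 4 (10.3% of the members, where 3.54% of all genes were called lower), with Ndufaf3 and Ndufs3 added. In TM180 none was left without any 1 of its own 4 arrays, NTG array 1 or NTG array 3.

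**Figure D1:**
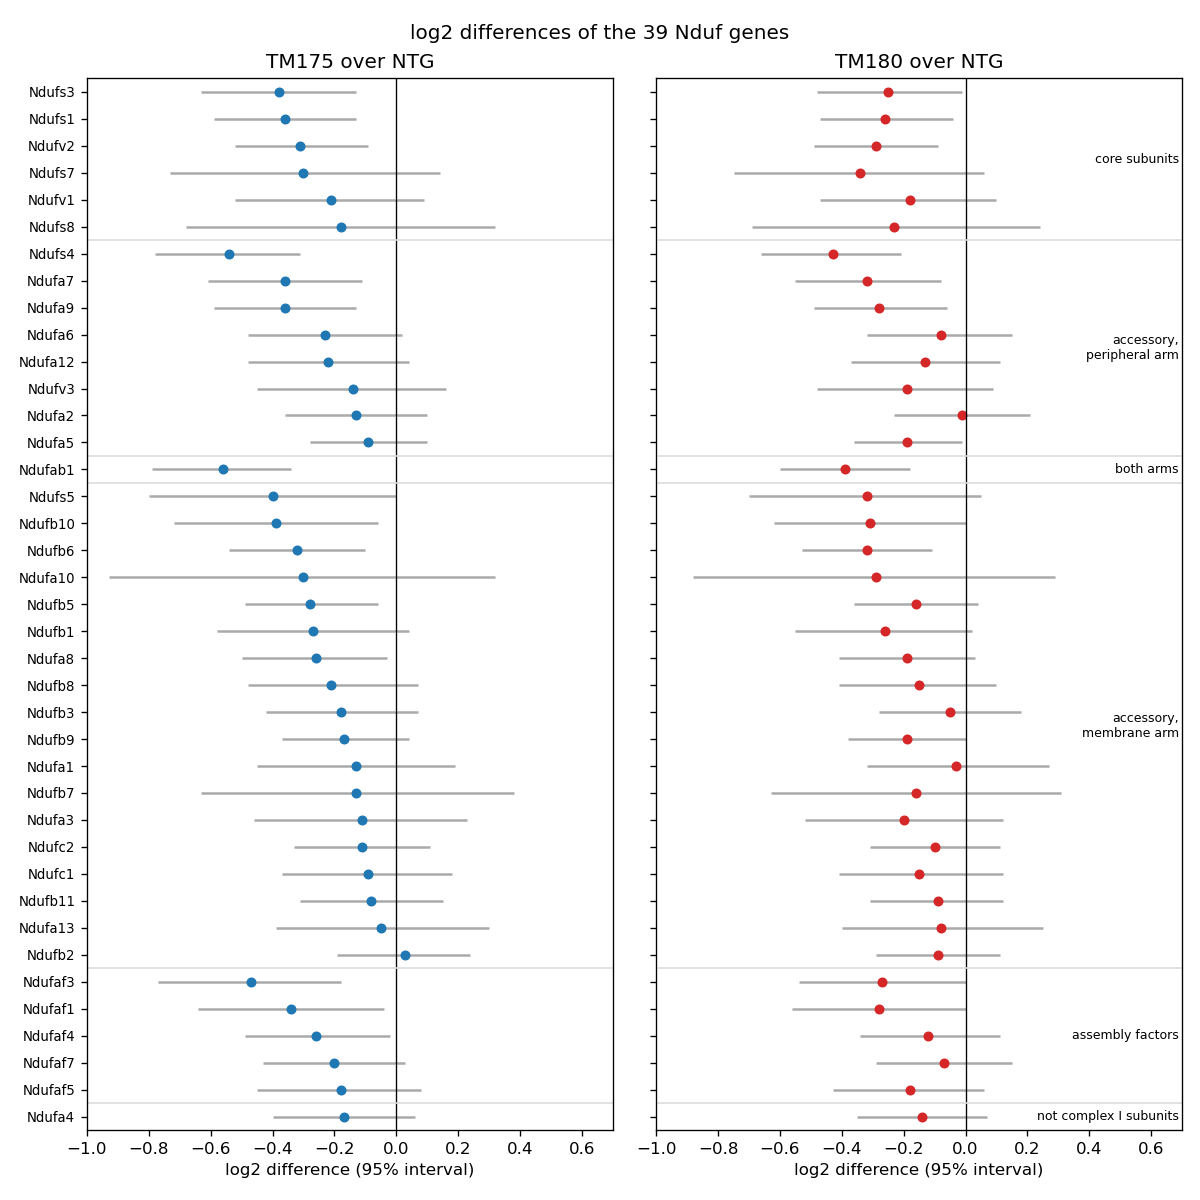
log2 difference (horizontal axis) of each of the 39 genes in TM175 (left, blue) and TM180 (right, red) over NTG, with 95% intervals as grey lines and genes sorted by role. The points lie between -0.56 and 0.03 in TM175 and between -0.43 and -0.01 in TM180, and most intervals cross 0.

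In 15 of 39 genes every TM175 array was lower than every NTG array, where 8.96% of all genes had that order, and in 14 of 39 every TM180 array was, where 4.22% of all genes had it. Both held for 11 genes (2.42% of all genes), in comparisons that share the NTG arrays: Ndufa7, Ndufa9, Ndufab1, Ndufaf1, Ndufb5, Ndufb6, Ndufb9, Ndufs1, Ndufs3, Ndufs4 and Ndufv2. These separations are those of the brightest probe sets. Ndufa7, Ndufab1, Ndufb5, Ndufb6, Ndufb9, Ndufs4 and Ndufv2 each also had a dimmer set that overlapped NTG in TM180. In Ndufa7, Ndufab1, Ndufb9, Ndufs4 and Ndufv2 such a set overlapped it in TM175 as well. The dimmest set of Ndufb9, with a mean intensity of 45, was at 0.19 in TM175.

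Ndufab1, the mitochondrial acyl carrier protein, which also serves mitochondrial fatty acid and lipoate synthesis, had the largest TM175 difference of the family. Its intensities were 2405, 2341 and 2407 in TM175, 2787, 2599, 2422 and 2962 in TM180, and 3761, 3245 and 3569 in NTG. Neither line overlapped NTG, and every TM180 array lay above every TM175 array. The difference was -0.56 ± 0.10 (SE; 0.678-fold) in TM175 and -0.39 ± 0.10 (0.763-fold) in TM180, with adjusted p-values by limma of 0.132 and 0.126. Under the model with extract type, the adjusted p by limma was 0.0341 in TM175, which passed, and 0.056 in TM180, which did not. The other 2 probe sets of Ndufab1, with mean intensities of 135 and 25.2, differed in sign from the brightest one in TM175, at 0.17 (SE 0.24) and 0.30 (SE 0.26). With extract type in the model they were again 0.17 (SE 0.16) and 0.30 (SE 0.13), and neither was called. The dimmer one then had an unadjusted p by limma of 0.0341 (adjusted p 0.195), in the direction opposite to the call. A probe set shared with the pseudogene Ndufab1-ps gave -0.30 in TM175 and -0.26 in TM180.

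Among the core subunits, those that carry the flavin, the iron-sulfur clusters or the ubiquinone site, all 6 measured genes were below NTG in both lines and 0 were called. Their median was -0.30 in TM175 and -0.25 in TM180. Ndufs1, which holds iron-sulfur clusters at the NADH end of the peripheral arm, had 2046, 2095 and 1845 in TM175, 2275, 1895, 2326 and 2091 in TM180, and 2542, 2633 and 2502 in NTG. The lowest NTG array stood above the highest array of each line. The difference was -0.36 (95% interval -0.59 to -0.13) in TM175 and -0.26 (-0.47 to -0.04) in TM180, with adjusted p-values by limma of 0.212 and 0.387.

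Ndufs3, a structural part of the core near the ubiquinone site, had 2201, 2565 and 2189 in TM175, 2737, 2617, 2680 and 2176 in TM180, and 3178, 2948 and 2925 in NTG. All NTG arrays were again the highest, and the pooled array was the lowest in each line. The difference was -0.38 ± 0.11 (SE) in TM175 and -0.25 ± 0.11 in TM180. Ndufv2, the iron-sulfur partner of the flavin subunit, had 2608, 3169 and 3046 in TM175, 3045, 2899, 3059 and 2861 in TM180, and 3775, 3485 and 3613 in NTG. It showed the same separation, with differences of -0.31 ± 0.10 in TM175 and -0.29 ± 0.09 in TM180.

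The remaining core subunits overlapped NTG. Ndufv1, the subunit that binds NADH and the flavin, averaged 2133 ± 245 in TM175 (SD, n = 3), 2183 ± 320 in TM180 (n = 4) and 2466 ± 199 in NTG (n = 3), with differences of -0.21 and -0.18, the second of which was -0.10 without TM180 array 3. Ndufs7, an iron-sulfur subunit at the ubiquinone site, averaged 2410 ± 397 in TM175, 2361 ± 550 in TM180 and 2942 ± 258 in NTG, with differences of -0.30 and -0.34. Without TM175 array 1 the TM175 difference was -0.16, and without TM180 array 3 the TM180 difference was -0.19. Ndufs8, a further iron-sulfur subunit, had 2166, 2757 and 4255 in TM175, 2853, 2623, 2681 and 3278 in TM180, and 3403, 2706 and 4014 in NTG. In all 3 groups its pooled array was the highest, and its TM175 difference of -0.18 became 0.04 without TM175 array 1 and -0.45 without the pooled array 3. Its TM180 difference of -0.23 became -0.09 without NTG array 3. The dimmer probe sets of Ndufs8 ran from -0.45 to 0.09 in TM175 and from -0.37 to 0.03 in TM180. Only the dimmest of them, with a mean intensity of 258, was above 0, and all overlapped NTG. The plot of intensities by array sets the brightest set of Ndufs8 beside members that did not overlap.

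**Figure D2:**
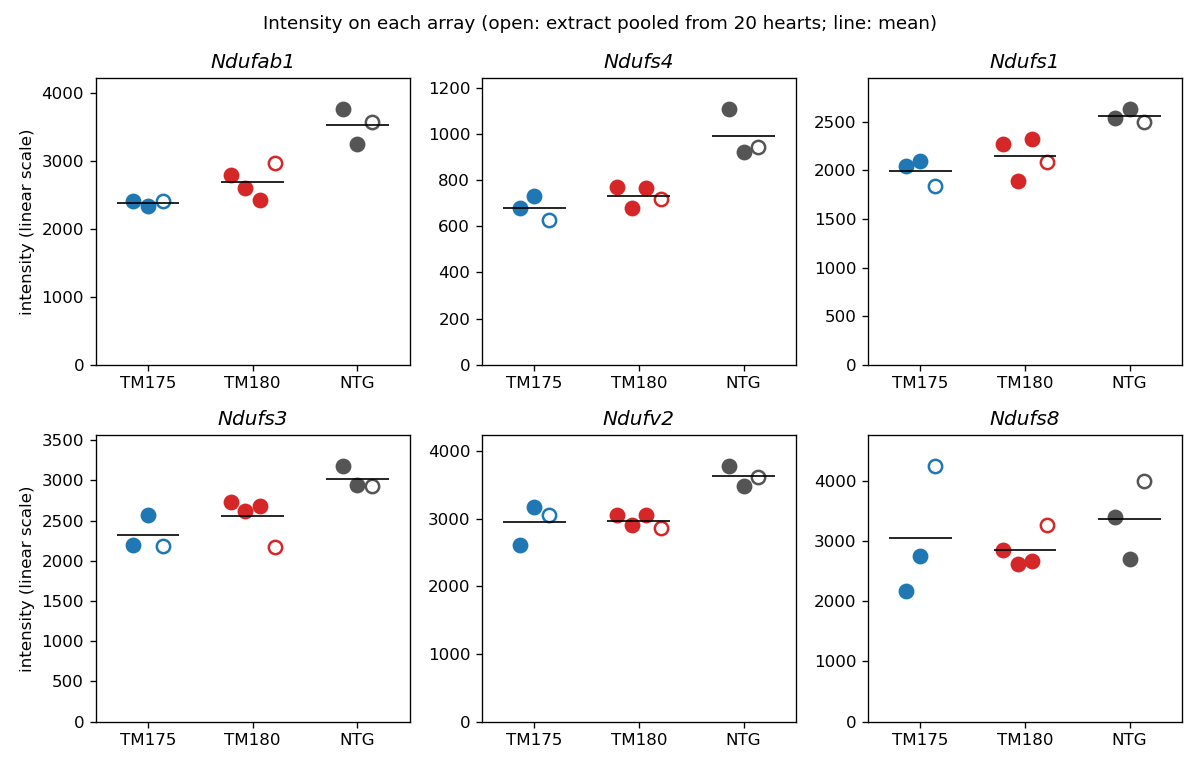
Intensity on the authors' linear scale (vertical axis, from 0) on each array for 6 genes, with TM175, TM180 and NTG from left to right, extracts of individual hearts as filled points, pooled extracts as open points and group means as lines. In Ndufab1, Ndufs4, Ndufs1, Ndufs3 and Ndufv2 all TM175 and TM180 points lie below all NTG points, while in Ndufs8 the groups overlap and the pooled extracts are the highest.

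The accessory subunits of the peripheral arm held the other member called under extract type. Ndufs4 is added late in the assembly of the peripheral arm, and its loss in mice is used as a model of Leigh syndrome. Its intensities were 681, 732 and 627 in TM175, 773, 678, 765 and 718 in TM180, and 1110, 923 and 945 in NTG. Every NTG array stood above every transgenic array, and the lines overlapped each other. The difference was -0.54 ± 0.11 (SE; 0.686-fold) in TM175 and -0.43 ± 0.10 (0.741-fold) in TM180. Adjusted p-values by limma were 0.139 in TM175 and 0.105 in TM180. Adding extract type brought them to 0.0419 in TM175 and 0.0352 in TM180, both past the threshold. The dimmer probe sets of Ndufs4, with mean intensities of 108 and 86.1, gave smaller differences. These were -0.15 and -0.28 in TM175, and -0.21 and -0.28 in TM180. Both sets overlapped NTG in each line, and neither was called in either model.

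All 8 measured peripheral accessory genes were below NTG in both lines, with medians of -0.23 in TM175 and -0.19 in TM180. Ndufa9, a subunit at the junction of the arms, had 1757, 2048 and 1749 in TM175, 2187, 1987, 1875 and 1800 in TM180, and 2437, 2319 and 2363 in NTG. Ndufa7 had 1696, 1964 and 1933 in TM175, 2151, 1932, 1693 and 1898 in TM180, and 2590, 2212 and 2366 in NTG. Neither gene overlapped NTG in either line. The difference was -0.36 in TM175 for both genes, and in TM180 it was -0.28 for Ndufa9 and -0.32 for Ndufa7, with adjusted p-values by limma between 0.216 and 0.344. Ndufa6, a small subunit that binds the acyl carrier, had 1849, 1979 and 2208 in TM175, 2363, 1955, 2444 and 2161 in TM180, and 2409, 2213 and 2453 in NTG. TM175 lay below NTG by a narrow gap and TM180 overlapped it, and the differences were -0.23 in TM175 and -0.08 in TM180.

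The membrane arm, whose accessory subunits surround the proton pumps, showed smaller medians than the core, the peripheral accessory subunits and the assembly factors. Its 18 measured genes had a median of -0.17 in TM175, with 17 below 0, and of -0.16 in TM180, with 18 below 0, and 0 were called. In TM180 the peripheral accessory subunits (-0.19) and the assembly factors (-0.18) lay close to it, and no difference between these lists was tested. Ndufb6 had 1788, 1982 and 1953 in TM175, 1904, 1965, 1724 and 2066 in TM180, and 2492, 2222 and 2452 in NTG. Both lines lay below NTG and overlapped each other, and the difference was -0.32 ± 0.10 (SE) in TM175 and -0.32 ± 0.09 in TM180, with adjusted p-values by limma of 0.236 and 0.219.

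Ndufb5 had 2582, 2500 and 2209 in TM175, 2761, 2422, 2704 and 2652 in TM180, and 2889, 2871 and 3055 in NTG. Ndufb9, which like Ndufa6 binds an acyl carrier, had 4258, 4917 and 4702 in TM175, 4668, 4281, 4865 and 4426 in TM180, and 5169, 5137 and 5248 in NTG. Both genes were apart from NTG by small steps, with differences of -0.28 and -0.16 for Ndufb5 and of -0.17 and -0.19 for Ndufb9 in TM175 and TM180. The TM175 difference of Ndufb9 was -0.11 without TM175 array 1. Ndufa1, a small membrane-spanning subunit, averaged 4372 ± 1020 in TM175 (SD, n = 3), 4610 ± 224 in TM180 (n = 4) and 4695 ± 297 in NTG (n = 3). Its differences of -0.13 and -0.03 changed sign under some settings. Ndufa3 averaged 5345 ± 875 in TM175, 5035 ± 803 in TM180 and 5739 ± 407 in NTG, with differences of -0.11 and -0.20, which became -0.01 without TM175 array 1 and -0.11 without TM180 array 3. Ndufs5, a subunit on the intermembrane side and among the dimmest of the members, averaged 127 ± 32.9 in TM175, 131 ± 14 in TM180 and 165 ± 24.0 in NTG, with differences of -0.40 (-0.25 without TM175 array 1) and -0.32.

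The assembly factors put the arms together and are absent from the finished enzyme. All 5 measured ones with the prefix were below NTG in both lines, with medians of -0.26 in TM175 and -0.18 in TM180, and 0 were called. Ndufaf1, which helps build the membrane arm, had 133, 159 and 165 in TM175, 178, 130, 175 and 155 in TM180, and 202, 180 and 196 in NTG. Its arrays did not overlap NTG in either line, although TM180 array 1 and NTG array 2 lay close together, and the differences were -0.34 ± 0.14 (SE) and -0.28 ± 0.13. Ndufaf3 had 217, 282 and 278 in TM175, 311, 290, 285 and 299 in TM180, and 393, 302 and 383 in NTG. Here TM175 lay below both other groups and TM180 overlapped NTG, with differences of -0.47 ± 0.13 in TM175 and -0.27 ± 0.12 in TM180. Ndufaf4, its partner in early assembly near the ubiquinone site, averaged 349 ± 37.9 in TM175, 384 ± 22.6 in TM180 and 416 ± 28.7 in NTG, with differences of -0.26 and -0.12.

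Ndufaf5, which modifies Ndufs7, averaged 114 ± 11.9 in TM175, 113 ± 1.84 in TM180 and 130 ± 19.2 in NTG, with a difference of -0.18 in each line (-0.07 in each without NTG array 1). Ndufaf7, a methyltransferase that acts on a core subunit, averaged 82.1 ± 5.03 in TM175, 90.2 ± 8.74 in TM180 and 94.4 ± 4.94 in NTG, with differences of -0.20 and -0.07. Of 12 assembly factors without the prefix, 9 were measured, with medians of -0.36 in TM175 and -0.18 in TM180, 8 of 9 below 0 in each line and 0 called. Ndufa4, the complex IV subunit, averaged 4208 ± 458 in TM175, 4272 ± 118 in TM180 and 4714 ± 367 in NTG, with differences of -0.17 and -0.14.

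Between the transgenic lines no member passed the test. In TM180 minus TM175, 0 of 39 genes were called, as were 0% of all genes, and 11 differences (28.2%) were below 0, where 53.3% of all genes were. Every TM180 array lay above every TM175 array in 2 members, Ndufab1 and Ndufaf3 (7.25% of all genes had that order), and below it in 1, Ndufa5 (7.45% of all genes). With extract type in the model 0 members were called, where 0.0323% of all genes were. The median difference was 0.04, beside -0.02 over all genes, and it changed sign to -0.04 on repeated quantile normalization and to -0.03 without TM175 array 1. The differences ran from -0.12 (Ndufb2) to 0.20 (Ndufaf3, 95% interval -0.07 to 0.48). The smallest adjusted p by limma was 0.437, for Ndufab1, whose difference of 0.17 had a 95% interval of -0.04 to 0.38. For Ndufs4 the difference was 0.11 (-0.11 to 0.33).

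The arrays of 1 line did not carry the lower level equally. Against the NTG mean, the median of the 39 genes was -0.34 on TM175 array 1, -0.23 on array 2 and -0.09 on the pooled array 3. On the TM180 arrays it was -0.13, -0.26, -0.17 and, in the pool, -0.18. The NTG arrays themselves stood at 0.06, -0.09 and 0.03. TM175 array 1 was below the NTG mean in 39 of 39 genes and was the lowest of the 10 arrays in 15, while the TM175 pool was below the NTG mean in 25 and was the highest of the 10 arrays in 9. NTG array 1 was the highest of the 10 in 17 genes.

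**Figure D3:**
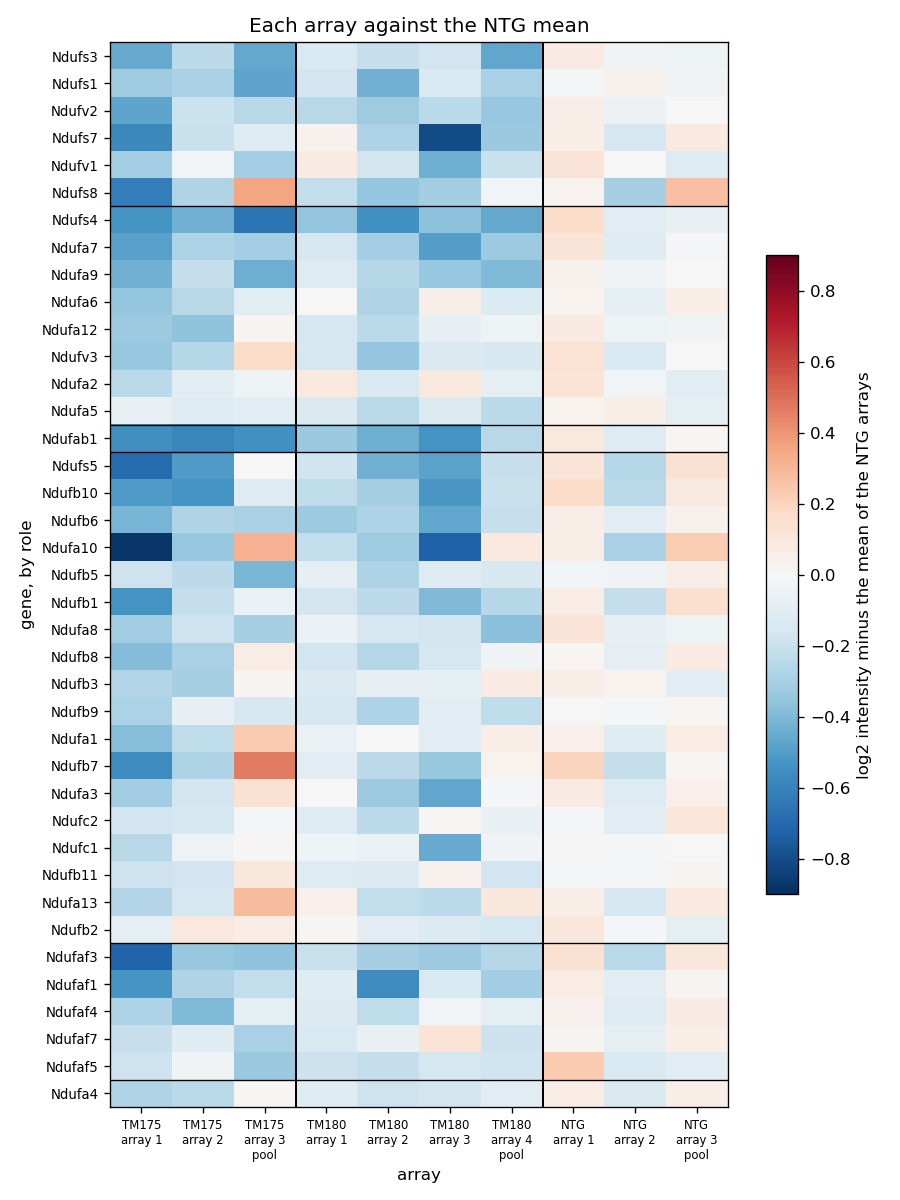
log2 intensity minus the NTG mean (colour, blue below and red above) for the 39 genes (vertical, by role) on the 10 arrays (horizontal, with TM175, TM180 and NTG from left to right). TM175 array 1 is blue in 39 of 39 genes, while the pooled TM175 array is red in several membrane arm genes and in Ndufs8.

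Within 1 extract type the 39 genes kept a median below 0. Among individual extracts the median was -0.30 in TM175 and -0.20 in TM180, and among the pools, with 1 array per group and so no test, it was -0.16 and -0.20. In TM175 the arms differed in this respect. The core subunits had medians of -0.33 among individual extracts and -0.22 between the pools, the peripheral accessory subunits -0.31 and -0.09, and the membrane accessory subunits -0.27 and 0.00. The difference between arms was not tested. Ndufab1 had -0.56 among individual extracts and -0.57 between the pools in TM175, and -0.43 and -0.27 in TM180. Ndufs4 had -0.52 and -0.59 in TM175, and -0.46 and -0.40 in TM180. Pooled against individual extracts, 2 members were called higher by limma, where 6.56% of all genes were: Ndufa10 (0.59 ± 0.15, SE, adjusted p 0.0184) and Ndufs8 (0.48 ± 0.12, adjusted p 0.014). The median over the members was 0.09, beside -0.07 over all genes.

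The brightest probe set was not the only one for 20 of the genes. Of 35 other probe sets of the members, 29 were below 0 in TM175 and 34 in TM180, with medians of -0.27 and -0.19, and 0 were called without covariate. With extract type in the model 1 was called, the dimmer set of Ndufc2, at -0.71 ± 0.11 (SE) in TM175 with an adjusted p by limma of 0.031. In that model the same set gave -0.43 in TM180, and the brightest set of Ndufc2 gave -0.11 and -0.09, so the probe sets of this gene disagreed in size. A further 8 probe sets carried several symbols, Nduf among them. For Ndufb4 and its near-identical copies, which have no set of their own, these gave -0.24 and -0.33 in TM175 and -0.26 and -0.47 in TM180.

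Genes of other mitochondrial complexes give the setting of these values. In complex II, which passes electrons from succinate, 4 of 4 genes were below 0 in each line, with medians of -0.28 in TM175 and -0.22 in TM180. Complex III, the next carrier in the chain, had medians of -0.21 and -0.15 over 9 genes, and complex V, the ATP synthase, had -0.14 and -0.12 over 17 genes. Complex IV, the oxidase, had 0.00 and -0.05 over 16 genes, with 8 and 12 of them below 0. None of these genes was called in either line. Every TM175 array was lower than every NTG array in 3 of 4 genes of complex II, 2 of 9 of complex III, 3 of 16 of complex IV and 8 of 17 of complex V. In TM180 that order held for 4, 2, 2 and 7 of them. General mitochondrial proteins, such as citrate synthase and the voltage-dependent channels, had medians of -0.21 and -0.17 over 10 genes, with 10 of 10 below 0 in each line and 0 called. Whether complex I differed from these lists was not tested.

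Summed intensities of complexes II, III and V did not overlap between NTG and either line, and those of complex IV overlapped in both. For complex V they were 65461 to 69427 in TM175, 64811 to 70977 in TM180 and 72506 to 74440 in NTG. The 39 members summed to 76014 to 95385 in TM175, 82257 to 90242 in TM180 and 91619 to 101682 in NTG. The mitochondrial content list summed to 23135 to 25088 in TM175, 22670 to 24194 in TM180 and 25953 to 26607 in NTG. The member sums overlapped only in TM175, through its pooled array, and the content sums did not overlap. A list of 9 regulators of mitochondrial genes had medians of 0.07 in TM175 and -0.16 in TM180, with 0 called. In TM175, 4 of the 9 were below 0, with a range of -0.53 to 0.29. In TM180, 7 of the 9 in this list were, with a range of -0.80 to 0.19. Within it, chosen after its values were seen, the coactivator Ppargc1a, which drives mitochondrial gene programmes in heart, had 133, 203 and 166 in TM175, 152, 86.2, 126 and 205 in TM180, and 238, 175 and 320 in NTG. The lines overlapped NTG, and the differences of -0.53 and -0.80 had adjusted p-values by limma of 0.477 and 0.35.

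**Figure D4:**
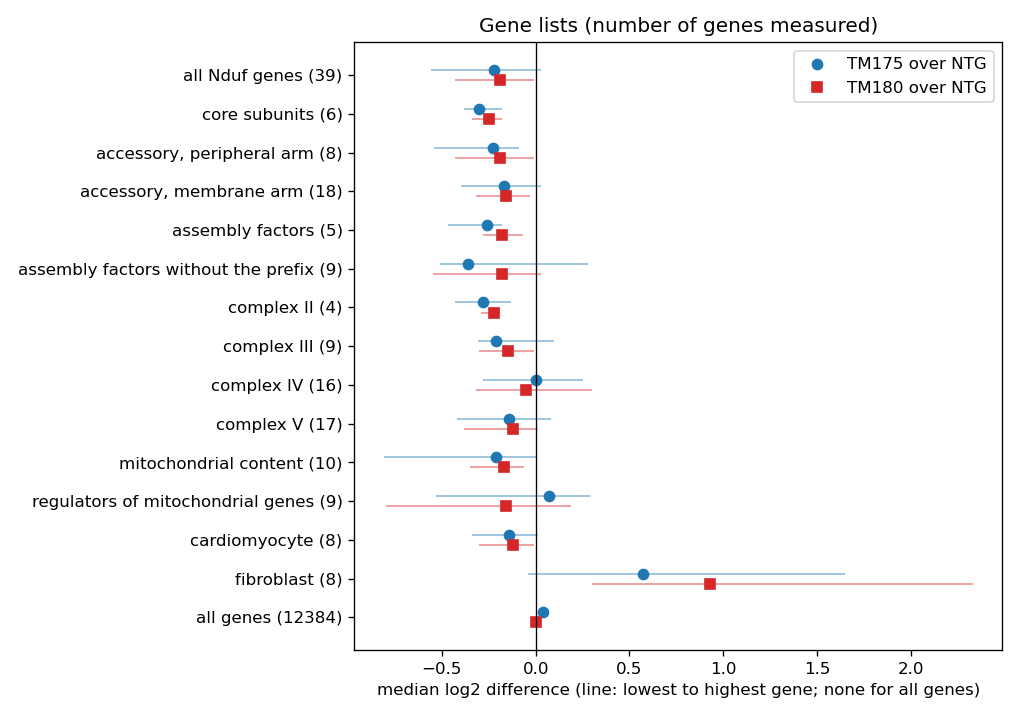
Median log2 difference (horizontal axis) of each gene list in TM175 (blue circles) and TM180 (red squares) over NTG, with lines from the lowest to the highest gene and the number of genes measured in brackets. The medians of the Nduf lists lie at -0.30 to -0.16, that of complex IV lies near 0 and that of the fibroblast markers lies above 0.

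Some lists of cell type markers differed between the groups, and most overlapped. The 8 fibroblast markers summed to 6639 to 10284 in TM175, 8410 to 12868 in TM180 and 4602 to 6906 in NTG, so TM175 overlapped NTG. Their median difference was 0.57 in TM175, with 1 marker below 0 (-0.04), and 0.93 in TM180, with 0 below 0. Called higher were Postn in TM175 (1.65 ± 0.19, SE, adjusted p by limma 0.037) and Col1a1, Col1a2 and Postn in TM180, all matrix proteins of activated fibroblasts. The 8 cardiomyocyte markers had medians of -0.14 in TM175 and -0.12 in TM180, with 0 called. Summed red blood cell markers (2 of 3 measured) were 287 to 297 in TM175, 178 to 198 in TM180 and 200 to 230 in NTG, and summed lymphocyte markers (3 of 4 measured) were 310 to 323 in TM175, 244 to 283 in TM180 and 259 to 293 in NTG. Sums of endothelial, smooth muscle, macrophage, atrial, adipocyte and brown adipocyte markers overlapped between each line and NTG. The part of these cells in the complex I values was not tested. In whole ventricle, fewer cardiomyocytes or mitochondria and less RNA per cell cannot be told apart.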

How the data were processed

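The deposited values are linear intensities, 1 per probe set and array. The authors computed them with RMA, per the submitters' processing notes, and its version is not given in the sources used here. In it a point sets off the last 3 digits of intensities of 1000 or more. This was undone for 7878 of 226900 values, from the digits written and the probe set's other values, and a check on values written in the same way read 2 of 223280 wrongly. The log2 intensities computed from the deposited values were tested over 22626 probe sets (64 controls left out) with lmFit and eBayes of limma 3.58.1 in R 4.3.3, with 1 mean per group over all 10 arrays and Benjamini-Hochberg adjustment. Of all probe sets, 20380 had 1 gene symbol, 691 several and 1555 none, and 20 symbols were updated through RefSeq's table. Tested on simulated data, TM175 against NTG recovered 19% of log2 changes of 0.5 and 77% of changes of 1, and TM180 against NTG 33% and 71%.

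Members and gene lists were chosen with earlier results of these data known. Genes with values are the core subunits, genes called or among the 6 smallest p-values of a comparison, genes whose arrays lie apart from NTG in both lines, the 3 brightest and 3 dimmest, Ndufa4, and genes whose probe sets disagree. Ndufa2, Ndufa5, Ndufb2, Ndufa10, Ndufc1, Ndufc2, Ndufv3, Ndufb4, ND5, Ppargc1a and Tfam were added after their values were seen. Levels are not compared between genes. The number of arrays limits the precision. Alternatives tried were extract type, individual extracts only, a replicate block, array weights, 2 normalizations, a filter on dim probe sets, pairwise fits, a variance trend, averaged probe sets, unsettled values left out, and each array left out.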

Additional observations from a re-analysis of the deposited data

Results flagged for a closer look

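In TM180, the group of 4 arrays, 2 of the 39 genes had 1 array far from the other 3 by Dixon's test, and about 1.95 would be so by chance. Ndufc1, a membrane arm subunit, was lowest on TM180 array 3, where the gap to the nearest array took 0.933 of the group's range, with intensities of 3996, 3935, 3003 and 4012. Ndufv3, an accessory subunit of the peripheral arm, was lowest on TM180 array 2, with a gap of 0.893 of the range and intensities of 3351, 2920, 3407 and 3367.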

How the results depend on the processing

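The number of called members was 0 in TM175 and in TM180 as reported, and became 2 and 1 with extract type in the model, 2 and 1 with extract type and median centring (chosen after seeing the data), and 19 and 4 with array weights (48.7% and 10.3% of the members, where 11.3% and 1.5% of all genes were called lower). These weights favoured TM175 array 2 (weight 3.242) and NTG array 1 (2.922). With extract type and 1 array left out, also chosen after seeing the data, the counts ran from 0 to 4 in TM175 and from 0 to 1 in TM180. The other planned settings gave 0, and TM180 minus TM175 gave 0 under all settings run.

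The TM175 median of -0.22 became -0.30 with individual extracts only and -0.11 on repeated quantile normalization. It ran from -0.31 to -0.17 with 1 array left out, and from -0.30 to -0.16 with extract type as well. The TM180 median of -0.19 ran from -0.24 to -0.16 with 1 array left out, and reached -0.11 with extract type and without NTG array 1. Over the planned settings other than leaving out an array, it lay between -0.22 and -0.15.

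Of 1472 alternatives for 46 values of single genes, 8 changed sign and 35 passed the threshold that no reported value passed. In TM175, Ndufa1 became 0.01 on quantile normalization and 0 without TM175 array 1, and Ndufs8 became 0.04 without that array. In TM180, Ndufa1 became 0.04 on quantile normalization, 0.01 without NTG array 3, 0.05 with extract type and without TM180 array 4, and 0.07 with extract type and without NTG array 1. Ndufaf7 became 0 with individual extracts only. With 1 array left out, Ndufa1 ran from -0.31 to 0 in TM175 and from -0.08 to 0.01 in TM180, and Ndufs8 ran from -0.45 to 0.04 in TM175. The cause of these changes was not tested.

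The deviations of arrays that share a replicate number had correlations from -0.509 to 0.709. Both extremes came from replicate 3, where the TM175 and NTG arrays were pooled and the TM180 array was individual. That range therefore cannot tell pairing from extract type. The correlations ran from -0.141 to 0.265 for replicate 1 and from 0.342 to 0.441 for replicate 2. The pooled TM180 array shared its replicate number with no other array, so it added nothing to the comparisons in the block fit. With the replicate number as a block, 0 members were called in each comparison, the medians were -0.22, -0.19 and 0.03, and the probe sets called numbered 1 in TM175 and 32 in TM180, against 2 and 114 without it. The signal limits the dimmest members, such as Ndufaf7 and Ndufaf5.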

Other observations

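The mitochondrially encoded core subunit ND5, looked up after its values were seen, had intensities of 4542, 3933 and 5863 in TM175, 4248, 4255, 3822 and 5593 in TM180, and 4992, 5559 and 5972 in NTG. The pooled array was the highest in each group, and both lines overlapped NTG. The difference was -0.22 ± 0.17 (SE) in TM175 and -0.31 ± 0.16 in TM180, with adjusted p-values by limma of 0.598 and 0.627.

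The mitochondrial transcription factor Tfam, also chosen after its values were seen, had 101, 96.7 and 113 in TM175, 130, 116, 135 and 132 in TM180, and 155, 130 and 145 in NTG. TM175 lay below both other groups, with a difference of -0.47 ± 0.11 (SE) and an adjusted p by limma of 0.168 (0.0515 with extract type in the model). TM180 overlapped NTG, with a difference of -0.16.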
